A study of Homo sapiens with 9 samples.

Results

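The genes described here encode the integrins and the laminins, chosen by symbol: all rows of the table named ITGA or ITGB with a chain number or letter, or LAMA, LAMB or LAMC with a number. There were 38 such genes among 56809, of which 26 were integrin chains and 12 laminin chains. RNA was sequenced from MDA-MB-468 cells, an established line from a human breast adenocarcinoma, in 9 libraries of polyadenylated RNA. The cells of 3 libraries carried the empty hairpin vector pSicoR (control), those of 3 carried shLMO2-1 and those of 3 carried shLMO2-2, 2 short hairpins named for LMO2, a LIM-domain cofactor that bridges DNA-binding proteins. All cells thus carried a vector, 1 cell line was used, and the control vector held no hairpin. The labels call the libraries of a group triplicates and do not say that they came from separate cultures, so the p-values measure the spread between these libraries, which may be technical.

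Integrins are cell surface receptors made of an alpha and a beta chain, and the pair decides which ligand is bound outside the cell, while the beta tail connects to the actin or keratin skeleton inside. Laminins are secreted trimers of an alpha, a beta and a gamma chain that form the first sheet of a basement membrane, the layer on which breast epithelium rests. Laminins are bound by integrins with the chains alpha 3, alpha 6 and alpha 7, and the pair of alpha 6 with beta 4 anchors epithelial cells in hemidesmosomes. Messenger RNA of a chain does not tell how much of it is paired or at the surface.

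RefSeq (GRCh38.p14) lists 33 windows of 250 bases before a transcription start for 26 of the 38 genes. The windows below belong to the genes that changed in the mean of both hairpins and have 1 listed start. They are shown because LMO2 does not bind DNA itself and its known partners bind E-boxes and GATA sites. Capitals mark each E-box, searched as CANNTG on both strands. They also mark each AGATAA, letters that GATA factors bind, searched on both strands, and no such match overlaps an E-box here. Other forms of the GATA site were not searched and are not marked. Each is the longest stretch of its window that no exon of GENCODE release 29 covers. All are written 5' to 3' on the strand of the gene.
ITGAM, chr16:31259725-31259966, plus strand: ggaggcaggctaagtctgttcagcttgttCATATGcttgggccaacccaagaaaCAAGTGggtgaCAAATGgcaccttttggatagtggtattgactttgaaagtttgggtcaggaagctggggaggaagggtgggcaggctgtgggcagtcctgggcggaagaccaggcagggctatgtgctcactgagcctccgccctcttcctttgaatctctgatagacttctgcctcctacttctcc
LAMA4, chr6:112254723-112254785, minus strand: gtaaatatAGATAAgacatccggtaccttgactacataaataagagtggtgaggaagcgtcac
LAMA5, chr20:62367313-62367562, minus strand: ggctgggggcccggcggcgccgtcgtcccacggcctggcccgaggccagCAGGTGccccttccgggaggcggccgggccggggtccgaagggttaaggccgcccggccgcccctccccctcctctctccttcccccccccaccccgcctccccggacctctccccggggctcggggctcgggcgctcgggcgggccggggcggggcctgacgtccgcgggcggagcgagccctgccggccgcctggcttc
LAMB2, chr3:49133119-49133300, minus strand: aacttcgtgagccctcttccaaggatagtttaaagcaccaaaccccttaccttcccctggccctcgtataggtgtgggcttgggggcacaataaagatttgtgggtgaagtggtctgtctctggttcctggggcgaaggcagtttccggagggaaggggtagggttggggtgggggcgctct
The ITGAM stretch held 3 E-box matches, the LAMA5 stretch 1 and the LAMB2 stretch 0, while the LAMA4 stretch, which lies between exons inside the LAMA4 gene of GENCODE 29, held the 1 AGATAA match. Over all 33 windows of the family, 54.5% held the E-box letters, beside 61.8% of all 35116 windows of the same length in RefSeq's list. AGATAA was found in 6.06% of the family's windows and in 9.17% of all windows, and GGGCGG, the GC box that Sp factors bind, in 51.5% and 42.6%. TATAAA stood in 6.06% against 10.7% and TGANTCA, the AP-1 letters, in 6.06% against 6.57%, each on either strand. A match is a description of these letters and says nothing of binding.

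Library totals lay between 15494486 and 23069456 estimated counts, and the shLMO2-2 libraries were the deepest. LMO2 itself, the target, stood at 0.232, 1.79 and 1.00 CPM, counts scaled to the library's total, in control replicates 1 to 3, at 0.0586 to 0.396 CPM under shLMO2-1 and at 0.0435 to 0.186 CPM under shLMO2-2. LMO2 overlaps AC132216.1 on the opposite strand. The filter on low counts dropped LMO2, and it was restored for testing, so its test rests on few counts. By edgeR's quasi-likelihood test with Benjamini-Hochberg adjustment its log2 fold change was -3.02 (SE 0.819, adjusted p = 0.0441) under shLMO2-2 and -2.44 (SE 0.813, adjusted p = 0.0907) under shLMO2-1, where 1 library lay above control replicate 1. Under shLMO2-2, LMO2 was no longer called without control replicate 2 (adjusted p = 0.138) or 3 (0.103), shLMO2-1 replicate 1 (0.062) or 2 (0.0625), or shLMO2-2 replicate 1 (0.132), 2 (0.102) or 3 (0.127), nor by limma-voom (0.0928) or in a fit of only the groups compared (0.062). LMO2 was also called under shLMO2-1 without control replicate 1 (0.0268) and without a filter on low counts (0.0253). All 6 breast epithelial and all 4 basal-like markers were above 1 CPM, with epithelial sums of 4519 to 5463 CPM in control, 5578 to 6617 CPM in shLMO2-1 and 6251 to 7246 CPM in shLMO2-2 libraries. KRT8, KRT18 and KRT19 make up most of these sums, while EPCAM, at group means of 432, 389 and 407 CPM, and CDH1, at 317, 295 and 287 CPM, were highest in control. The part of these markers in the results was not tested. Control replicate 1 lay farthest from the other libraries on the first principal component, at -32.7 against -12.2 to 20.2, and calls of named genes that changed without it are given beside those genes.

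Of the 38 genes, 24 had a mean of at least 1 CPM over the 9 libraries, and all 24 were tested. The 14 others were lower: ITGA8, ITGA11, ITGAD and LAMA1 had 0 counts in all 9 libraries, 9 had at most 16 counts in any library and were not tested, and ITGAL was the remaining gene. ITGAL reached the filter's minimum of 10 counts, scaled to library size, in 1 control library and all 6 hairpin libraries, where it was higher. It is therefore given by its values and left out of the tests and counts of these Results. Counts of calls that include ITGAL are given only where the dependence on the processing is described. The level that separates both classes fell between ITGA2B at 1.62 CPM and ITGAL at 0.988 CPM.

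Compared per length, as CPM per kilobase of the longest transcript, 2 chains stood apart from all others in the control libraries. ITGB1, the beta chain that pairs with most alpha chains, had a level of 94.2 (92.5 to 96.4), and ITGAV, the alpha chain that binds ligands with the RGD sequence such as fibronectin and vitronectin, 76.7 (72.3 to 84.8). Their order depends on the length used: per kilobase of the union of a gene's exons, ITGAV was at 65.6 (61.9 to 72.6) and ITGB1 at 59.3 (58.2 to 60.7), and both again exceeded all others. The levels of ITGB5 (24.7), ITGA6 (22.1), ITGB6 (20.2) and LAMB2 (20.03) followed, and neighbours among these 4 overlapped over the 3 controls. ITGB4 at 18.3 and ITGA3 at 17.6 CPM per kilobase overlapped as well, and both lay below the laminin-binding chain ITGA6 (21.1 to 23.5) in every control library. LAMB1 was the next at a level of 14.4, then LAMC1 at 12.8, ITGB8 at 10.7, LAMA5 at 9.38 and LAMA4 at 7.85, with overlap between neighbours from LAMC1 on. LAMB3 and ITGAE, at levels of 5.32 and 5.20, could not be ordered. The remaining 8 ranged from 2.59 for ITGA2 down to 0.183 for LAMA3, with ITGA9 at 1.58, ITGA5 at 1.2, ITGAM at 1.09, ITGB2 at 0.919, LAMA2 at 0.907 and ITGA2B at 0.539 CPM per kilobase. With the union of exons as length, the mean level over the 9 libraries changed from 17.7 to 9.90 for ITGA3, from 9.55 to 5.52 for ITGB8 and from 6.47 to 3.66 for LAMA4, so places near these depend on the length used.

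**Figure D1:**
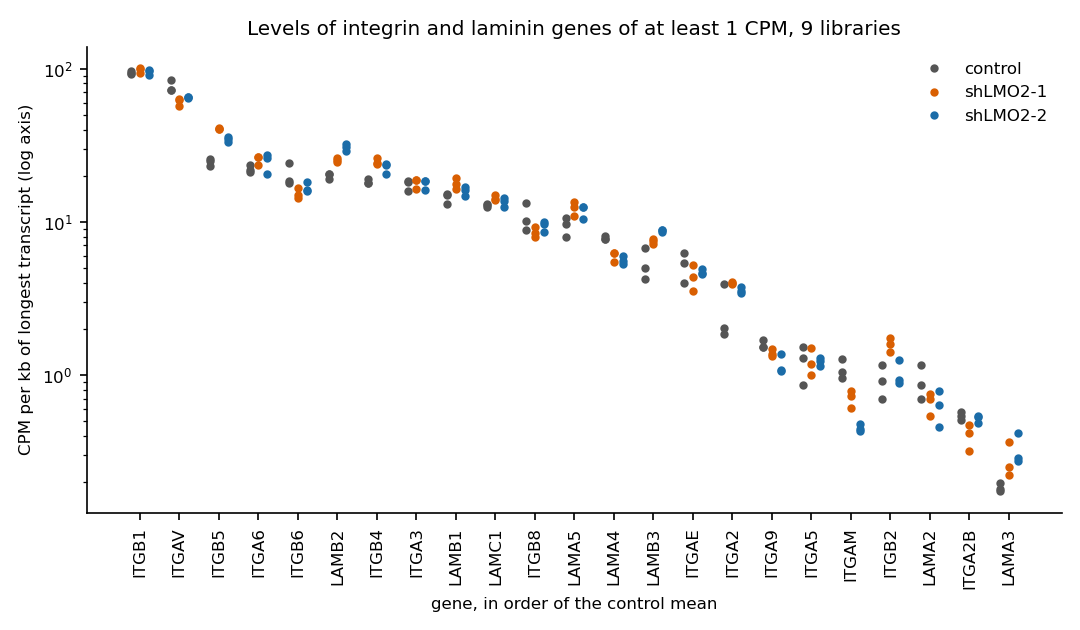
Level of integrin and laminin genes of at least 1 CPM, as CPM per kilobase of its longest transcript on a log axis, with 1 point per library and genes ordered by the control mean. ITGB1 (control mean 94.2) and ITGAV (76.7) stand above the rest, and LAMA3 (0.183) is the lowest.

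Several of these genes differed from control in cells with either hairpin. Under shLMO2-1, 7 of the 24 genes of at least 1 CPM were called at an adjusted p under 0.05 by edgeR's quasi-likelihood test with Benjamini-Hochberg adjustment over all genes: ITGB4, ITGB5, ITGB2, LAMB1 and LAMB2 were higher and ITGAV and LAMA4 lower. That is 29.2%, where 8.42% of all 14709 tested genes were called, 4.54% higher and 3.88% lower. Here and below, the share over all tested genes has no cut at 1 CPM and includes genes of lower counts. The part of this unlike cut in the differences between the shares was not tested. Under shLMO2-2, 6 of 24 were called (25%, beside 8.97% of all genes, 4.94% higher and 4.04% lower): ITGB4, ITGB5, LAMB2 and LAMB3 higher, ITGAM and LAMA4 lower. In the mean of both hairpins 8 of 24 were called, 5 higher and 3 lower (33.3%, beside 12.4% of all genes, 6.47% higher and 5.93% lower). The genes called under each hairpin separately were ITGB4, ITGB5 and LAMB2, all higher, and LAMA4, lower, which is 4 of 24, where 4.64% of all genes were called under each hairpin in 1 direction. Both hairpin comparisons use the same 3 control libraries, and in bulk RNA fewer cells of a type and less RNA per cell cannot be told apart. The number called under shLMO2-1 was 3 without shLMO2-1 replicate 3 and 4 without control replicate 3, and the number under shLMO2-2 was 4 without shLMO2-2 replicate 2. With total-count scaling the calls were 4 higher and 3 lower under shLMO2-1, and 4 and 4 both under shLMO2-2 and in the mean.

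The median size of the log2 difference, regardless of sign, was 0.36 under shLMO2-1 for these 24 genes and 0.17 for all tested genes. Under shLMO2-2 it was 0.25 against 0.17. The signed median of the 15 integrin genes was 0.01 under shLMO2-1 and -0.004 under shLMO2-2, with 53.3% and 46.7% of them above 0. That of the 9 laminin genes was 0.31 and 0.15, with 77.8% and 66.7% above 0, where the median of all tested genes was 0.001 and 0 and 50.2% and 50% were above 0. Under shLMO2-1, 16 of the 24 genes of at least 1 CPM had all 3 hairpin libraries on 1 side of all 3 controls, 10 above and 6 below (66.7%, beside 28.3% of all tested genes). Under shLMO2-2 it was 9 of 24, 5 above and 4 below (37.5%, beside 29.9%), which is close to the share of all genes. All 6 hairpin libraries lay on 1 side of the controls for 9 of 24, 5 above and 4 below (37.5%, beside 16.7%).

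Between the hairpins, 0 of the 24 genes were called by edgeR (0.768% of all tested genes were, 0.347% higher and 0.422% lower under shLMO2-2), 4 had an unadjusted p under 0.05, DESeq2 called 2 and limma-voom 0. Without control replicate 1, edgeR called 2, LAMB2 and ITGB5. The shLMO2-1 and shLMO2-2 libraries did not overlap for 9 of the 24 genes of at least 1 CPM (37.5%, beside 18.1% of all genes).

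**Figure D2:**
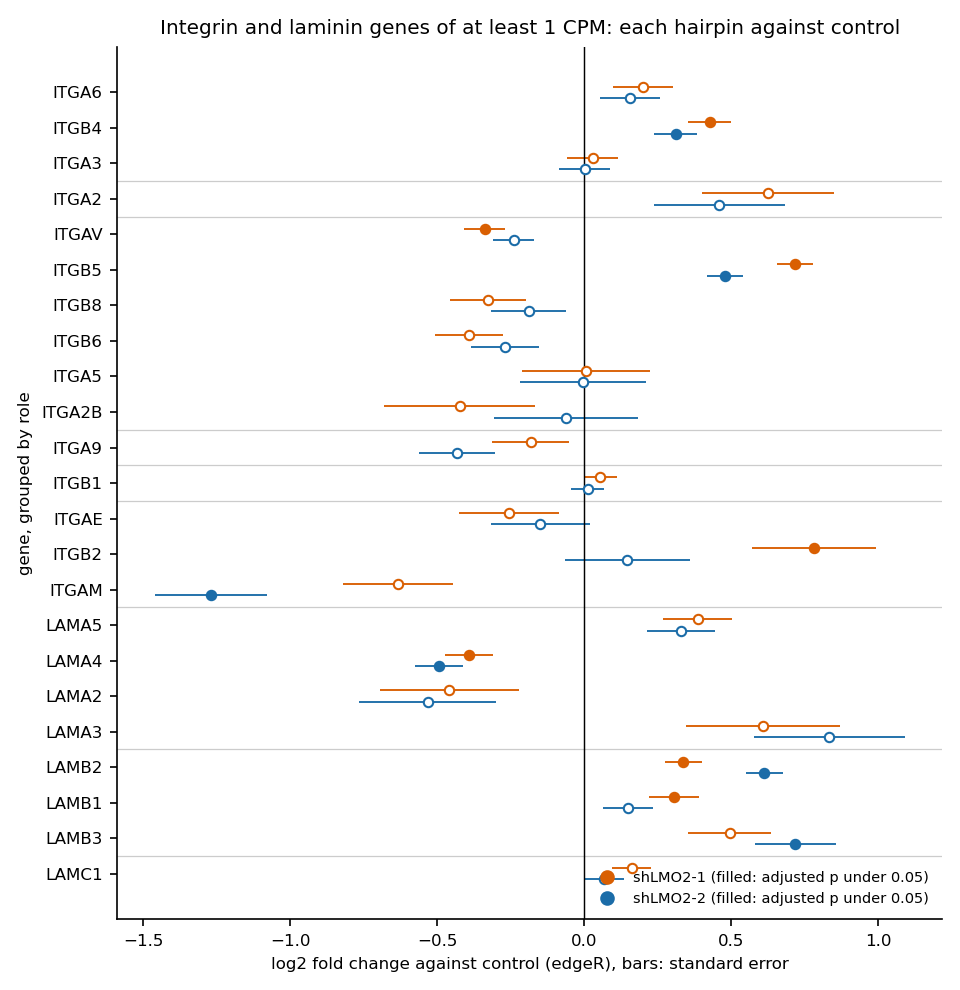
Log2 fold change against control (edgeR) of 23 of the 24 genes of at least 1 CPM, grouped by role, for shLMO2-1 and shLMO2-2, with bars for the standard error and filled points at an adjusted p under 0.05. ITGB5 (0.72 and 0.48) and LAMB2 (0.34 and 0.61) lie above 0 under both hairpins and LAMA4 (-0.39 and -0.49) below it.

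Among the laminin-binding integrin chains, ITGB4 rose and its partner ITGA6 did not pass the test. ITGB4, the hemidesmosome chain with the long cytoplasmic tail (chromosome 17, 75721328-75757818, plus strand, GENCODE 29, GRCh38), stood at 106, 105 and 113 CPM in control, at 142, 154 and 141 CPM under shLMO2-1 and at 122, 141 and 140 CPM under shLMO2-2. All 6 hairpin libraries lay above all 3 controls. The log2 fold change was 0.43 (SE 0.0729, adjusted p = 0.00608, edgeR) under shLMO2-1 and 0.31 (SE 0.0727, adjusted p = 0.0252) under shLMO2-2. Under shLMO2-2, ITGB4 was no longer called without control replicate 2 (adjusted p = 0.06), control replicate 3 (0.0519), shLMO2-2 replicate 2 (0.11) or shLMO2-2 replicate 3 (0.102), in the fit of only the groups compared (0.056) or with length and GC trends removed (0.0529), within a range of 0.00286 to 0.11 over all alternatives. ITGB4 overlaps GALK1 on the opposite strand, and strand use in the counting is not given in the sources used here. ITGA6 stood at 118 to 132 CPM in control, 131 to 149 CPM under shLMO2-1 and 115 to 153 CPM under shLMO2-2, overlapping groups with a mean log2 difference of 0.18 (SE 0.0892, adjusted p = 0.222). ITGA3, the chain that pairs with beta 1 to bind laminins, had 87.4 to 102 CPM in control and 88.3 to 103 CPM in the hairpin libraries, a mean log2 difference of 0.02 (SE 0.0748, adjusted p = 0.918). ITGA7, best known from muscle, was under 1 CPM in every library.

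Of the RGD-binding chains, beta 5 was called higher under each hairpin, and the alpha chain it pairs with was called lower under shLMO2-1 and in the mean. ITGB5 (chromosome 3, 124761948-124901418, minus strand), which forms the vitronectin receptor alpha V beta 5, was at 101, 113 and 110 CPM in control, 179, 176 and 177 CPM under shLMO2-1 and 145, 151 and 156 CPM under shLMO2-2. The 3 groups did not overlap, with shLMO2-1 highest. Its log2 fold change was 0.72 (SE 0.0616, adjusted p = 0.000111, edgeR) under shLMO2-1 and 0.48 (SE 0.0614, adjusted p = 0.00139) under shLMO2-2, and both calls held in every alternative run at the 0.05 threshold. The difference between the hairpins was -0.24 (SE 0.061, adjusted p = 0.133), and it was called by DESeq2 (0.0185) and without control replicate 1 (0.0446). ITGB5 overlaps AC022336.3, ENO1P3 and RF00100 on its strand and ITGB5-AS1 on the other, so part of its reads could belong to these.

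ITGAV (chromosome 2, 186590065-186680901, plus strand), the only alpha partner known for beta 5, beta 6 and beta 8, was at 596, 513 and 508 CPM in control, 437, 443 and 398 CPM under shLMO2-1 and 458, 451 and 460 CPM under shLMO2-2. Every hairpin library lay below every control. For ITGAV this gave a log2 fold change of -0.34 (SE 0.0705, adjusted p = 0.0151, edgeR) under shLMO2-1 and -0.29 (SE 0.0603, adjusted p = 0.0117) in the mean. Under shLMO2-2 alone it was -0.24 (SE 0.0703, adjusted p = 0.0592), short of the threshold, but ITGAV was called there by DESeq2 (0.0217), with no filter on low counts (0.0336), with total-count scaling (0.0392) and with a stricter filter of at least 10 counts per library (0.0495). The shLMO2-1 call was lost without shLMO2-1 replicate 3 (adjusted p = 0.0648, range over the alternatives 0.000438 to 0.0648), the library with the lowest value. ITGAV overlaps AC017101.1 on the opposite strand.

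The other beta partners of alpha V did not pass the test, ITGB6 by a small margin that depended on the setting. ITGB6, an epithelial receptor that activates latent TGF-beta, was at 114, 85.9 and 83.9 CPM in control, 78.2, 70.2 and 67.2 CPM under shLMO2-1 and 85.4, 75.7 and 73.9 CPM under shLMO2-2. All shLMO2-1 libraries were below all controls and 1 shLMO2-2 library was not, with a mean log2 difference of -0.33 (SE 0.0988, adjusted p = 0.0514, edgeR). ITGB8, which also binds latent TGF-beta, ranged from 77.6 to 116 CPM in control and from 69.5 to 86.9 CPM in the hairpin libraries (mean log2 difference -0.26, SE 0.11, adjusted p = 0.154). In both genes control replicate 1 was the highest library, at 1.34 and 1.4 times the mean of the other controls. ITGB6 was called in the mean with median-of-ratios (adjusted p = 0.0492), upper-quartile (0.0447) and total-count scaling (0.0431), by DESeq2 (0.0176), without control replicate 2 (0.0489), and both with no filter on low counts (0.00153) and with a stricter one of at least 10 counts per library (0.0433). ITGB8 was called in the mean without the filter (0.0244) and without control replicate 2 (0.0466). ITGA5, the fibronectin receptor chain, had 4.28 to 7.6 CPM in control and 4.95 to 7.48 CPM in the hairpin libraries (mean log2 difference 0.00, SE 0.188, adjusted p = 0.997). ITGA2B, the platelet chain, was at 1.06 to 1.9 CPM throughout, and ITGB3, the other vitronectin receptor beta chain, at 0.396 CPM or less.

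As a share of the summed integrin beta level per length, ITGB5 made up 14.6% in control, 21.5% under shLMO2-1 and 19.2% under shLMO2-2, on average over 3 libraries each. The single libraries spanned 13.1% to 15.6%, 21% to 22.1% and 18.5% to 20.1%, without overlap. ITGB6 made up 11.9%, 8.14% and 9.34% of that sum, and ITGB1 55.7%, 51.9% and 52.9%. ITGAV took 59.4% of the summed integrin alpha level in control, 52.1% under shLMO2-1 and 54.6% under shLMO2-2, with a range of 57.4% to 61.7% in control and 49.2% to 57% in the hairpin libraries. Shares of 1 sum depend on each other, so a larger share of 1 chain lowers the others, and these shares were not tested.

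**Figure D3:**
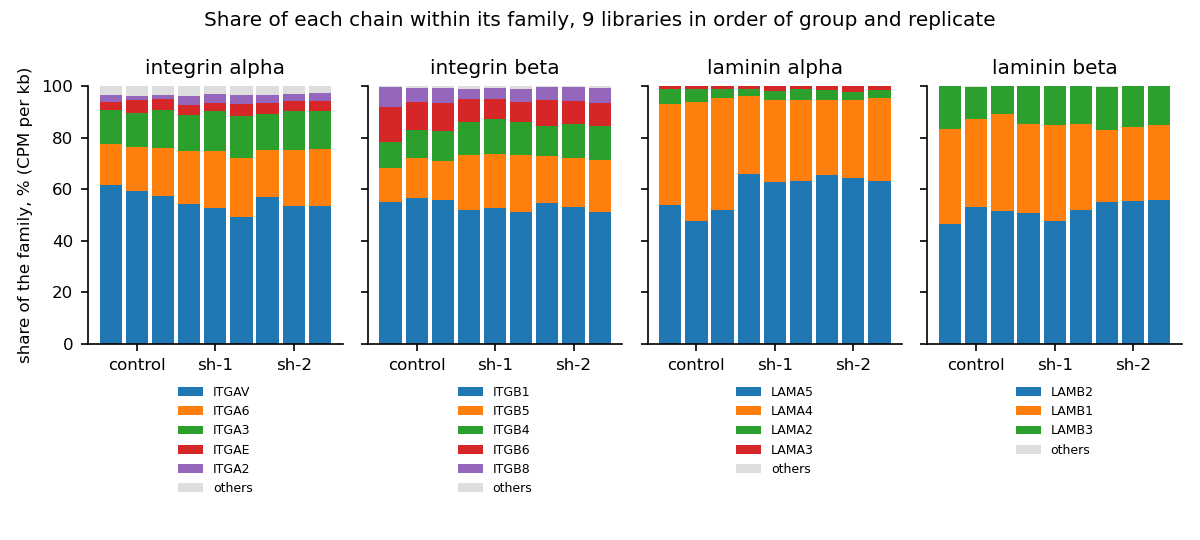
Share of each chain in the summed CPM per kilobase of its family, in percent, for each of the 9 libraries in order of group and replicate, with the chains beyond the leading ones in grey. The ITGB5 share is larger in the hairpin libraries (18.5% to 22.1%) than in control (13.1% to 15.6%), and within the laminin alpha chains LAMA5 takes 62.7% to 65.8% in place of 47.5% to 53.8%.

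The chain shared by most alpha chains, ITGB1, did not pass the test: it was at 350 to 365 CPM in control, 355 to 381 CPM under shLMO2-1 and 343 to 371 CPM under shLMO2-2, with a mean log2 difference of 0.03 (SE 0.0476, adjusted p = 0.696, edgeR). ITGB1 had estimated counts that were not whole in all 9 libraries, as arises where reads are divided among matching sequences. Of the collagen-binding chains, ITGA2, the epithelial collagen receptor, was the 1 above 1 CPM. It was at 30.9, 15.9 and 14.4 CPM in control, 31.1, 31.6 and 31.5 CPM under shLMO2-1 and 27.9, 26.7 and 29.3 CPM under shLMO2-2. Control replicate 1 lay among the hairpin libraries and was 2.04 times the mean of the other controls. The mean log2 difference was 0.54 (SE 0.198, adjusted p = 0.0986) with it and 0.96 (adjusted p = 7.94e-05) without it. ITGA2 was also called without a filter on low counts (0.000166), by limma-voom (0.0449) or DESeq2 (0.0392) and with length and GC trends removed (0.0231), in a range of adjusted p over the alternatives from 7.94e-05 to 0.319. ITGA9, which with beta 1 binds tenascin C, was at 12 to 13.3 CPM in control and 8.36 to 11.7 CPM in the hairpin libraries. All hairpin libraries lay below all controls, the hairpin groups overlapped each other, and the mean log2 difference of -0.31 (SE 0.111, adjusted p = 0.0952) was called without shLMO2-2 replicate 1 (-0.38, adjusted p = 0.0388). ITGA4 had at most 0.0513 CPM, and the collagen-binding ITGA1 and ITGA10 at most 0.232 and 0.264 CPM.

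The leukocyte integrin chains other than ITGAE were low, and ITGAM was called lower under shLMO2-2 and ITGB2 higher under shLMO2-1. ITGAM, which with beta 2 forms the complement receptor of myeloid cells (chromosome 16, 31259967-31332892, plus strand, no overlapping gene), stood at 4.93, 6.05 and 4.55 CPM in control, 2.87, 3.46 and 3.69 CPM under shLMO2-1 and 2.04, 2.28 and 2.11 CPM under shLMO2-2. The 3 groups did not overlap. Its log2 fold change was -1.27 (SE 0.19, adjusted p = 0.0029, edgeR) under shLMO2-2 and -0.63 (SE 0.188, adjusted p = 0.0618) under shLMO2-1, where it was called with total-count scaling (0.0448) and with the filter of at least 10 counts per library (0.0485). The difference between the hairpins was -0.64 (SE 0.196, adjusted p = 0.229).

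ITGB2, the beta chain of the same receptors (chromosome 21, 44885953-44931989, minus strand), was at 3.31, 5.54 and 4.34 CPM in control, 7.65, 6.74 and 8.37 CPM under shLMO2-1 and 4.44, 4.22 and 5.98 CPM under shLMO2-2. The shLMO2-1 libraries lay above all others, and the shLMO2-2 libraries overlapped the controls. ITGB2 had a log2 fold change of 0.78 (SE 0.211, adjusted p = 0.044, edgeR) under shLMO2-1 and 0.15 (SE 0.212, adjusted p = 0.716) under shLMO2-2, with a difference of -0.64 (SE 0.207, adjusted p = 0.269). Under shLMO2-1, ITGB2 was no longer called without control replicate 1 (adjusted p = 0.0867) or 3 (0.119), shLMO2-1 replicate 1 (0.105), 2 (0.0802) or 3 (0.136), or shLMO2-2 replicate 1 (0.0576) or 2 (0.0618), in the fit of only the groups compared (0.0698) or with length and GC trends removed (0.0577), in a range of 0.00751 to 0.136. ITGB2 overlaps AL844908.2 on its strand and ITGB2-AS1 on the other.

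ITGAL, the alpha chain of the lymphocyte receptor for ICAM-1 (chromosome 16, 30472658-30523185, plus strand), had 3, 7 and 12 counts in control, 26, 20 and 20 under shLMO2-1 and 33, 33 and 18 under shLMO2-2. These are 0.174, 0.359 and 0.634 CPM in control, against 1.17 to 1.46 CPM and 0.809 to 1.53 CPM, so all hairpin libraries were above all controls at very low level. ITGAL overlaps MIR4518 on its strand and RNU7-61P among others on the opposite strand.

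Other leukocyte markers were measured beside these 3 genes. CD3E and LYZ, which mark T cells and myeloid cells, had 0 counts in all 9 libraries, and PTPRC, the CD45 of nearly all leukocytes, stood at 0.0449 to 0.348 CPM. CD14 and CD68 reached 3.56 and 2.12 CPM. The 5 markers summed to 1.51 to 2.12 CPM in control, 3.16 to 5.72 CPM under shLMO2-1 and 3.97 to 4.52 CPM under shLMO2-2. This sum was thus higher in every hairpin library, as ITGAL was. Its rise lay mostly in CD14 and CD68, whose group means were higher under both hairpins. The mean of PTPRC was lower than in control under shLMO2-1 and higher under shLMO2-2. ITGAM, the myeloid chain, was lower in every hairpin library, opposite to the sum. The part of these markers in the levels of ITGAL, ITGAM and ITGB2 was not tested. ITGAE, which binds E-cadherin, was at 15.4 to 24.0 CPM in control and 13.7 to 20.2 CPM in the hairpin libraries, overlapping (mean log2 difference -0.20, SE 0.145, adjusted p = 0.404). ITGAX and ITGB7 were under 1 CPM in every library.

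Of the laminin alpha chains, alpha 4 was called lower under each hairpin, and alpha 5 was called higher only in the mean of both. LAMA4, the alpha chain best known from vessel and muscle basement membranes (chromosome 6, 112108760-112254939, minus strand), was at 50.4, 50.8 and 53.1 CPM in control, 40.6, 41.2 and 35.7 CPM under shLMO2-1 and 36.1, 39.0 and 34.4 CPM under shLMO2-2. All hairpin libraries were lower than all controls. LAMA4 had a log2 fold change of -0.39 (SE 0.0815, adjusted p = 0.0151, edgeR) under shLMO2-1, -0.49 (SE 0.081, adjusted p = 0.00489) under shLMO2-2 and -0.44 (SE 0.0693, adjusted p = 0.00271) in the mean. LAMA4 was no longer called under shLMO2-1 without control replicate 3 (adjusted p = 0.0595) or shLMO2-1 replicate 3 (0.0605), in a range of 0.000661 to 0.0605. LAMA4 overlaps 6 other annotated genes, 3 on each strand. The summed level of 5 endothelial markers, mostly KDR, was 7.18 to 13.9 CPM in control, 13.5 to 19.4 CPM under shLMO2-1 and 8.58 to 11.2 CPM under shLMO2-2, and its part in the level of LAMA4 was not tested.

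LAMA5, the alpha chain of the laminins that adult epithelia most widely deposit (chromosome 20, 62307955-62367312, minus strand), was at 121, 91.0 and 110 CPM in control, 154, 142 and 124 CPM under shLMO2-1 and 143, 143 and 118 CPM under shLMO2-2. All shLMO2-1 libraries exceeded the controls, and shLMO2-2 replicate 3 lay below control replicate 1. The mean of both hairpins gave a log2 fold change of 0.36 (SE 0.102, adjusted p = 0.0433, edgeR), while neither hairpin alone passed (0.39 with SE 0.117 and adjusted p = 0.0661, 0.33 with SE 0.116 and adjusted p = 0.106), though both did without a filter on low counts (0.000904 and 0.00487) and shLMO2-1 did by DESeq2 (0.0208). The call in the mean was lost without control replicate 2 (0.132) or 3 (0.105), shLMO2-1 replicate 1 (0.0777) or 2 (0.0918), shLMO2-2 replicate 1 (0.0889) or 2 (0.0995), and under total-count scaling (0.0904), in a range of 0.000232 to 0.132. Without control replicate 1, LAMA5 was called under shLMO2-1 (log2 0.47, adjusted p = 0.0294). LAMA5 overlaps ADRM1 and LAMA5-AS1 on the opposite strand and MIR4758 on its own.

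LAMA5 made up 51% of the summed laminin alpha level per length in control, 63.9% under shLMO2-1 and 64.3% under shLMO2-2, and LAMA4 made up 43%, 31.2% and 30.5%. In single libraries LAMA4 took 39.3% to 46.3% in control and 28.9% to 32.2% in the hairpin libraries. The sum itself overlapped between the groups, at 18.3 ± 1.44, 19.2 ± 1.7 and 18.3 ± 1.72 CPM per kilobase (SD, n = 3). LAMA3, the alpha chain of laminin 332 in hemidesmosomes, was low, at 1.85 to 2.09 CPM in control and 2.37 to 4.46 CPM in the hairpin libraries. All hairpin libraries lay above all controls, and the hairpin groups overlapped each other. The mean log2 difference of LAMA3 was 0.72 (SE 0.23, adjusted p = 0.0631, edgeR), called without a filter on low counts (0.0465). LAMA2, the muscle chain, was at 6.77 to 11.3 CPM in control and 4.45 to 7.57 CPM in the hairpin libraries, overlapping (mean log2 difference -0.50, SE 0.2, adjusted p = 0.131). Without a filter on low counts, LAMA2 was called in the mean (edgeR, adjusted p = 0.037).

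All 3 laminin beta chains above 1 CPM rose under at least 1 hairpin. LAMB2 (chromosome 3, 49121114-49133118, minus strand, no overlapping gene), the beta chain that replaces beta 1 in many mature basement membranes, was at 109, 117 and 116 CPM in control, 148, 139 and 143 CPM under shLMO2-1 and 164, 176 and 182 CPM under shLMO2-2. The 3 groups did not overlap and shLMO2-2 was highest. The log2 fold change was 0.34 (SE 0.0636, adjusted p = 0.0101, edgeR) under shLMO2-1 and 0.61 (SE 0.0634, adjusted p = 0.000338) under shLMO2-2, and both calls held in every alternative run at the 0.05 threshold. The difference between the hairpins was 0.28 (SE 0.0631, adjusted p = 0.0937). It was called without control replicate 1 (0.0391), by DESeq2 (0.0068) and with length and GC trends removed (0.0397).

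LAMB3, the beta chain of laminin 332 (chromosome 1, 209614870-209652466, minus strand), was at 29.2, 21.4 and 18.2 CPM in control, 32.5, 33.4 and 30.9 CPM under shLMO2-1 and 37.8, 38.2 and 37.1 CPM under shLMO2-2. Again the 3 groups did not overlap, and control replicate 1 was 1.47 times the mean of the other controls. The log2 fold change was 0.72 (SE 0.139, adjusted p = 0.0108, edgeR) under shLMO2-2, 0.50 (SE 0.14, adjusted p = 0.0537) under shLMO2-1 and 0.61 (SE 0.123, adjusted p = 0.0103) in the mean. Without shLMO2-2 replicate 2 the shLMO2-2 call was lost (adjusted p = 0.0513, range over the alternatives 4.28e-07 to 0.0513), and without control replicate 1 LAMB3 was called under shLMO2-1 (log2 0.70, adjusted p = 0.00124), as it was without a filter on low counts (0.00158), by DESeq2 (0.0132) and by limma-voom (0.0414). LAMB3 overlaps MIR4260 on its strand.

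LAMB1, the beta chain of the laminins made most widely in embryo and adult (chromosome 7, 107923799-108003255, minus strand), was at 87.0, 75.7 and 85.8 CPM in control, 102, 111 and 94.0 CPM under shLMO2-1 and 84.9, 93.6 and 96.9 CPM under shLMO2-2. The shLMO2-1 libraries were above all controls and the shLMO2-2 libraries overlapped them. LAMB1 had a log2 fold change of 0.31 (SE 0.0848, adjusted p = 0.0485, edgeR) under shLMO2-1 and 0.15 (SE 0.0845, adjusted p = 0.307) under shLMO2-2. LAMB1 was no longer called under shLMO2-1 without control replicate 2 (0.128) or 3 (0.0978), shLMO2-1 replicate 1 (0.111), 2 (0.181) or 3 (0.0537), or shLMO2-2 replicate 1 (0.0577), 2 (0.084) or 3 (0.0666), with median-of-ratios (0.0502) or total-count scaling (0.0815), by limma-voom (0.0529) or in the fit of only the groups compared (0.0926), in a range of 0.015 to 0.181. LAMB1 overlaps DLD and AC005046.1 on the opposite strand and RF00012 on its own. LAMB4 was under 1 CPM in every library.

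Summed per length, the laminin beta chains stood at 39.8 ± 1.16 CPM per kilobase in control, 50.6 ± 1.57 under shLMO2-1 and 55.4 ± 2.68 under shLMO2-2 (SD, n = 3 each). The single libraries ranged from 38.7 to 41 in control and from 48.8 to 57.6 in the hairpin libraries. LAMB1 took 36.1% of the sum in control, 35.1% under shLMO2-1 and 28.7% under shLMO2-2, LAMB2 took 50.5%, 50.1% and 55.3%, and LAMB3 took 13.3%, 14.8% and 15.8%. LAMC1, the gamma chain of most laminin trimers, did not pass the test. It was at 98.9 to 103 CPM in control, 109 to 119 CPM under shLMO2-1 and 98.2 to 112 CPM under shLMO2-2 (mean log2 difference 0.12, SE 0.0585, adjusted p = 0.225, edgeR). LAMC3 was under 1 CPM in every library.

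**Figure D4:**
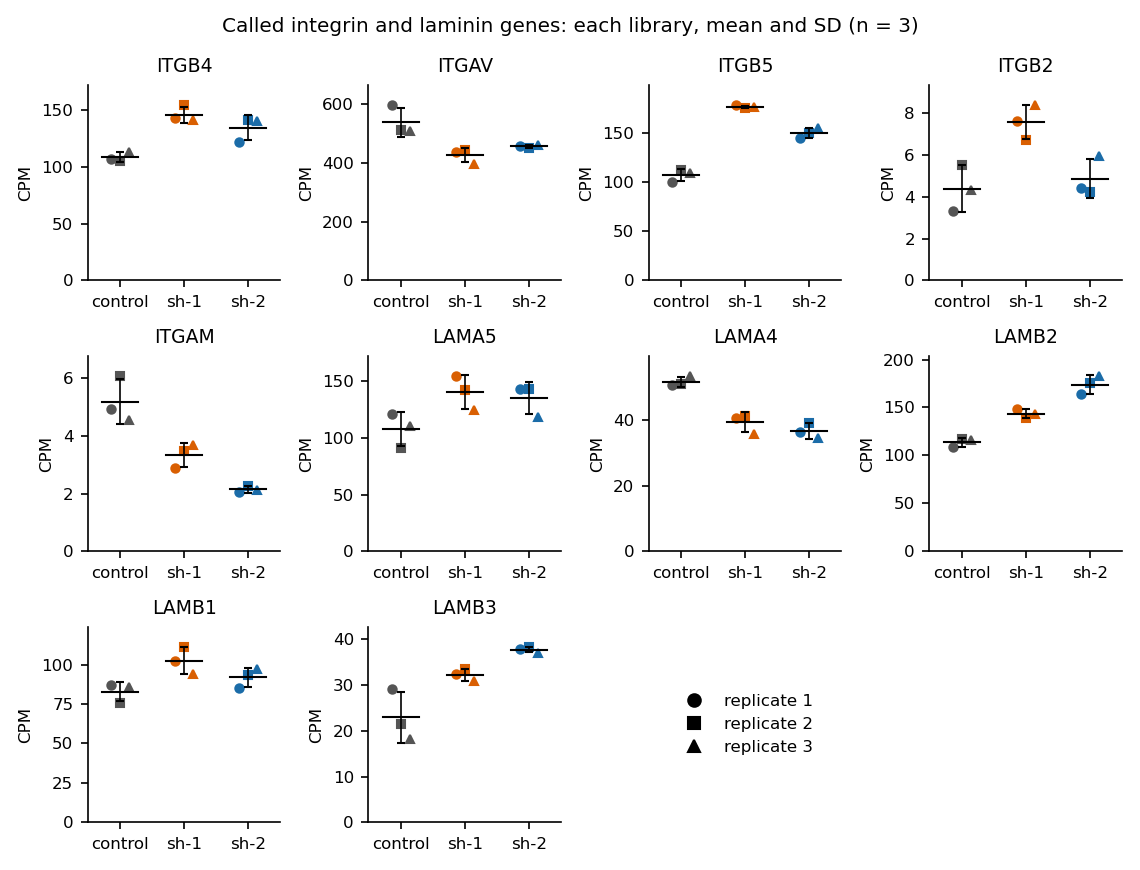
CPM of each of the 10 genes of at least 1 CPM called in at least 1 comparison, with 1 point per library (circle, square and triangle for replicates 1, 2 and 3), the group mean as a line and the SD as a bar (n = 3), on axes that start at 0. For ITGB5 and LAMB2 no hairpin library reaches down to the controls, and for LAMA4 and ITGAV no hairpin library reaches up to them.

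Over the 24 genes of at least 1 CPM, the 14 called in no comparison had mean log2 differences from -0.50 to 0.72 and adjusted p from 0.0514 to 0.997 (edgeR). The coefficient of variation between replicates had a median of 8.63% in control, 7.55% under shLMO2-1 and 6.57% under shLMO2-2, and reached 44.7% in control, for ITGA2. A difference could go uncalled even where all hairpin libraries lay on 1 side of all controls, as for LAMA3 and ITGA9. Missing the threshold does not show that a chain was at the same level.

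The proteins that carry integrin signals inside the cell were listed as 43 adhesion plaque genes, of which 39 were tested. Under shLMO2-1, 8 were called higher and 0 lower, and under shLMO2-2, 1 higher and 0 lower, beside the 8.42% and 8.97% of all genes called. The 8 under shLMO2-1 were 3 without shLMO2-1 replicate 2, 4 when control replicate 2 or 3 or shLMO2-1 replicate 1 was left out, and 5 without shLMO2-2 replicate 2, with total-count scaling or in the fit of only the groups compared. The 1 under shLMO2-2 was 0 without control replicate 2 or any 1 of the shLMO2-2 libraries, and 3 by DESeq2. The median log2 difference was 0.09 and 0.04, where that of all tested genes was 0.00 in both. The 4 called in the mean that had the lowest p were FBLIM1, which connects filamins to the kindlins (log2 0.46 with SE 0.0628 under shLMO2-1 and 0.20 with SE 0.0626 under shLMO2-2), FERMT2, the kindlin that helps switch integrins on (0.39 and 0.24), TNS3, a tensin at beta tails (0.46 and 0.25), and ACTN1, the alpha actinin that crosslinks actin there (0.24 and 0.11). None of these 4 was called under shLMO2-2 alone, where the adjusted p was 0.0581 to 0.177, and the difference between the hairpins was not called for any of them (adjusted p 0.102 to 0.457). Under shLMO2-2, TNS3 was called without control replicate 3 (adjusted p = 0.0376) and without a filter on low counts (0.0304), and FERMT2 by DESeq2 (0.0287) and with length and GC trends removed (0.00507). ACTN1 was not called under shLMO2-1 without shLMO2-1 replicate 2 (0.0601). In the mean the ACTN1 call was lost without control replicate 2 (0.0581) or 3 (0.0683), shLMO2-1 replicate 2 (0.0545) or shLMO2-2 replicate 2 (0.059), with total-count scaling (0.053) and without a filter on low counts (0.0554).

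Of 24 basement membrane and hemidesmosome partners of laminins, 17 were tested, with 2 higher and 2 lower under shLMO2-1 and 0 higher and 3 lower under shLMO2-2, beside 8.42% and 8.97% of all genes called. Over the 14 of at least 1 CPM these were 2 and 1, and 0 and 1. Without shLMO2-1 replicate 2 the 4 calls under shLMO2-1 were 2, and without shLMO2-2 replicate 2 the 3 under shLMO2-2 were 1. COL4A5, a collagen IV chain of the basement membrane network, was at 41.5 to 47.7 CPM in control and 20.4 to 26.9 CPM in the hairpin libraries, with log2 fold changes of -0.86 (SE 0.106) and -1.04 (SE 0.105) and adjusted p of 0.000929 and 0.0003 (edgeR). COL4A1, another collagen IV chain, was at 1.23 to 1.9 CPM in control and 0.352 to 0.675 CPM in the hairpin libraries, a mean log2 difference of -1.49 (adjusted p = 0.0101) that was not called without control replicate 3 (0.0663). The COL4A1 call under shLMO2-2 (adjusted p = 0.0446) was lost without any 1 of the 9 libraries (0.0548 to 0.162, and 0.0911 without control replicate 1), in the fit of only the groups compared (0.0566) and without a filter on low counts (0.0775), and that under shLMO2-1 (0.0208) without control replicate 3 (0.0893) or shLMO2-1 replicate 2 (0.0917) or 3 (0.0881). COL4A4, which is counted among the lower calls under shLMO2-2, was at 0.74 to 1.28 CPM in control and 0.0928 to 0.586 CPM in the hairpin libraries. COL4A4 reached the filter's minimum in all 3 control libraries and in 1 hairpin library, so its test is not given. COL18A1, the precursor of endostatin, fell by 0.21 on the log2 scale in the mean (SE 0.0598, adjusted p = 0.0404), a call lost without control replicate 2 (0.0676) or 3 (0.192), shLMO2-1 replicate 1 (0.0586), 2 (0.0801) or 3 (0.0682), or shLMO2-2 replicate 1 (0.0718), 2 (0.0516) or 3 (0.0712), and without a filter on low counts (0.07). Without control replicate 1, COL18A1 was called under shLMO2-1 (0.0419) and shLMO2-2 (0.0478), as it was with total-count scaling (0.0474 and 0.0406) and with length and GC trends removed (0.00485 and 0.0114). PXDN, the peroxidasin that crosslinks collagen IV, was at 378 to 448 CPM in control, 504 to 547 CPM under shLMO2-1 and 426 to 443 CPM under shLMO2-2, and was called under shLMO2-1 (log2 0.39, SE 0.0685, adjusted p = 0.00718).

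Of 38 further integrin ligands and laminin receptors, 27 were tested, with 3 higher and 3 lower under shLMO2-1 and 1 higher and 6 lower under shLMO2-2, beside 8.42% and 8.97% of all genes called. The 7 under shLMO2-2 were 4 without shLMO2-2 replicate 2 or 3 and 12 without a filter on low counts. NPNT, nephronectin, a basement membrane ligand of RGD-binding integrins, was at 35.4 to 36.9 CPM in control, 18.7 to 19.5 CPM under shLMO2-1 and 22.6 to 27.9 CPM under shLMO2-2, with log2 fold changes of -0.92 (SE 0.0917, adjusted p = 0.000293, edgeR) and -0.51 (SE 0.0892, adjusted p = 0.00648). MFGE8, a ligand of alpha V integrins, was at 84.2 to 97.9 CPM in control and 55.7 to 62.9 CPM in the hairpin libraries (log2 -0.57 and -0.69). FN1, fibronectin, was at 49.3 to 65.5 CPM in control, 90.8 to 99.9 CPM under shLMO2-1 and 62.5 to 74.2 CPM under shLMO2-2, and was called under shLMO2-1 (log2 0.78, SE 0.105, adjusted p = 0.00158), and also under shLMO2-2 without control replicate 1 (adjusted p = 0.0216), without a filter on low counts (0.0407) and with length and GC trends removed (0.008). DAG1, the laminin receptor dystroglycan, was at 343 to 362 CPM in control and 383 to 407 CPM in the hairpin libraries, called in the mean (log2 0.17, SE 0.0454, adjusted p = 0.0304), a call lost without control replicate 1 (0.0768) or 3 (0.0966), shLMO2-1 replicate 2 (0.0708) or 3 (0.0607), or shLMO2-2 replicate 2 (0.0773) or 3 (0.0627), without a filter on low counts (0.0726) and with length and GC trends removed (0.0949), while DESeq2 called DAG1 under each hairpin (0.0143 and 0.0241). Over the 3 lists together, 18 of 83 tested genes were called under shLMO2-1 (21.7%), 11 under shLMO2-2 (13.3%) and 21 in the mean (25.3%, beside 12.4% of all genes), COL4A4 being 1 of the 11 and 1 of the 21. The 13 higher and 5 lower calls under shLMO2-1 were 10 and 8 with total-count scaling, and the 11 higher and 10 lower in the mean were 7 and 13. The shLMO2-1 count was 11 without shLMO2-1 replicate 2, the shLMO2-2 count 5 without shLMO2-2 replicate 2 and 6 without shLMO2-2 replicate 3, and the count in the mean 12 without control replicate 3.

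**Figure D5:**
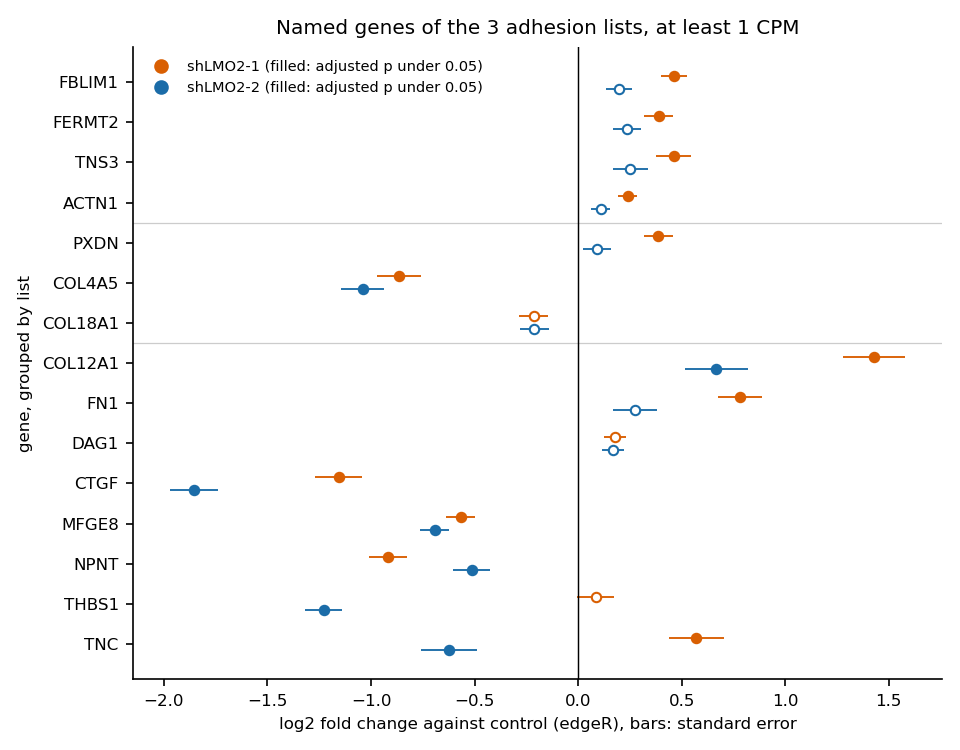
Log2 fold change against control (edgeR) of the named genes of at least 1 CPM in the 3 adhesion lists, for shLMO2-1 and shLMO2-2, with bars for the standard error and filled points at an adjusted p under 0.05. COL4A5 (-0.86 and -1.04), NPNT (-0.92 and -0.51) and MFGE8 (-0.57 and -0.69) lie below 0 under both hairpins.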

How the data were processed

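The authors deposited a single table of estimated counts per gene symbol for the 9 libraries, in which 11.67% to 12.81% of a library's values were not whole numbers. The submitters' processing notes name Salmon 0.12, DESeq2 1.22.2 and GRCh38.p12 without role or order, and strand use is not given in the sources used here. Reads that match several genes may have been divided, which makes overlapping and near-identical genes uncertain. Per the labels' protocols, polyadenylated RNA was selected. Libraries were grouped by the plasmid in their labels, 3 groups of 3, and none was left out.

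Counts were rounded and tested with edgeR 4.0.16 (R 4.3.3) after TMM scaling. The filter filterByExpr (minimum count 10, minimum total 15) kept 14708 genes, and LMO2, which it dropped, was restored, giving 14709 genes with 99.91% of all counts. The quasi-likelihood fit had a group factor, all 9 libraries and no covariate, and 4 contrasts: each hairpin, their mean, and shLMO2-2 minus shLMO2-1. Calls required an adjusted p under 0.05 (Benjamini-Hochberg over all tested genes). In the Results, calls among members are counted over those with a mean of at least 1 CPM. This leaves out ITGAL, tested only through the libraries where it was high. Standard errors were derived from the fold change and its F statistic. CPM uses TMM-scaled totals. Library totals of 15494486 to 23069456 counts left members of at least 1 CPM with 18 counts or more in each library. No pair of libraries of a group agreed within counting noise (chi-square per gene 4.93 to 27.1, where noise alone gives about 1).

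The members, lists, naming rule and alternatives were chosen with earlier results of these data known. Named were all members, in detail from a mean of 1 CPM and by library where called, LMO2, and from each of 3 adhesion lists up to 4 higher and 4 lower genes, taken by p among those called in the mean contrast, plus those called between the hairpins. CTGF is the older symbol of CCN2, matched by gene ID. Lengths and coordinates came from GENCODE 29 (GRCh38) by symbol. All 56809 symbols matched, and 219 stand for more than 1 gene ID, none of them a member. Promoter windows came from RefSeq (GRCh38.p14). Tests were checked on simulated data. Alternatives were other scalings, other filters, a fit of only the groups compared, a replicate block, limma-voom 3.58.1, DESeq2 1.42.0, an adjusted p under 0.01, exon-union lengths, leaving out each library, and removal of length and GC trends, which was chosen after seeing the data. The single-gene results of 1 member are not reported here, though it is counted among the members.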

Additional observations from a re-analysis of the deposited data

Results flagged for a closer look

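The effects of the hairpins differed in the direct test (edgeR's quasi-likelihood test of shLMO2-2 against shLMO2-1, Benjamini-Hochberg adjustment over all genes) for 4 of the 83 tested genes of the adhesion lists, where 0.768% of all genes were called. All 4 encode secreted ligands outside the integrin and laminin families. THBS1, thrombospondin 1, was at 493 to 567 CPM in control, 529 to 601 CPM under shLMO2-1 and 198 to 251 CPM under shLMO2-2, a log2 difference between the hairpins of -1.31 (SE 0.0908, adjusted p = 0.000115). TNC, tenascin C, was at 66.4 to 102 CPM in control, 111 to 122 CPM under shLMO2-1 and 50.5 to 53.0 CPM under shLMO2-2, so the hairpin groups lay on opposite sides of the controls, with a log2 difference of -1.19 (SE 0.135, adjusted p = 0.00174).

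CTGF, a matricellular ligand of several integrins, fell under both hairpins, from 27.2 to 35.0 CPM in control to 12.9 to 14.2 CPM under shLMO2-1 and 7.92 to 8.58 CPM under shLMO2-2. The log2 difference between the hairpins was -0.70 (SE 0.119, adjusted p = 0.0247), a call lost without any 1 of the 6 hairpin libraries (adjusted p = 0.0667 to 0.142). COL12A1, a fibril-associated collagen, rose under both, from 21.3 to 29.3 CPM in control to 53.6 to 80.2 CPM under shLMO2-1 and 37.3 to 42.8 CPM under shLMO2-2, where the call against control was lost without control replicate 2 (adjusted p = 0.0576) or 3 (0.0769) or without any 1 shLMO2-2 library (0.0543 to 0.0932). Its log2 difference between the hairpins was -0.76 (SE 0.146, adjusted p = 0.041), a call lost without control replicate 3 (0.0732) and without any 1 hairpin library but shLMO2-1 replicate 3 (0.125 to 0.225).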

How the results depend on the processing

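Of the 24 integrin and laminin genes of at least 1 CPM, 7 were called under shLMO2-1, 6 under shLMO2-2, 8 in the mean and 0 between the hairpins. These were 12, 10, 14 and 0 without a filter on low counts, 2, 4, 5 and 0 with an adjusted p under 0.01, and 12, 11, 12 and 1 with a replicate block, and DESeq2 called 11 under shLMO2-1 and 2 between the hairpins. ITGAL was tested against control only through the libraries where it was high, so nothing is concluded from its calls. Counts that include it are given here only to show how they move. With ITGAL, 8 were called under shLMO2-1, 7 under shLMO2-2, 9 in the mean and 0 between the hairpins. Without a filter on low counts these were 13, 11, 15 and 0, with an adjusted p under 0.01 they were 2, 4 and 5 in the first 3, and in a fit of only the groups compared the shLMO2-1 count was 5. DESeq2 called 2 and the removal of length and GC trends 1 between the hairpins. Leaving out 1 library gave 3 to 9, 4 to 7, 7 to 9 and 0 to 2, with ITGAL or without. Of the other adhesion genes, 18, 11, 21 and 4 were called. Without the filter these were 19 under shLMO2-2 and 9 between the hairpins, by DESeq2 18 and 11, with length and GC trends removed 18 and 8, in the fit of only the groups compared 8 between the hairpins, and with an adjusted p under 0.01 they were 10, 5, 10 and 2. Leaving out 1 library gave 11 to 22, 5 to 14, 12 to 22 and 2 to 8. The cause of these moves was not tested.

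With the replicate number as a block, 25, 34 and 11 other adhesion genes were called under shLMO2-2, in the mean and between the hairpins. Over all genes the block raised the calls from 1239 to 2214, 1320 to 2377, 1823 to 3024 and 113 to 257. Deviations of libraries with the same number correlated at -0.125 to 0.449 over 9 pairs and those with different numbers at -0.477 to 0.333 over 18. Pairs of replicates 1 stood at 0.384 to 0.449 and pairs of replicates 3 at 0.262 to 0.364, while pairs of replicates 2 stood at -0.125 to 0.055. Control replicate 2 did not correlate best with its own number, so the numbers were not taken as pairs. Whether libraries of equal number share an effect was not tested.

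The signs that turned belonged to differences that passed no threshold either way. The mean difference turned for ITGA5 (-0.001 with median-of-ratios scaling and by DESeq2, -0.002 with upper-quartile and -0.042 with total-count scaling, -0.006 with 10 counts in every library, -0.023 with length and GC trends removed, and -0.2 to 0.178 without 1 library), for ITGA3 (-0.029 with total-count scaling, -0.061 with the trends removed, -0.05 to 0.055 without 1 library), for ITGB1 (-0.009 with total-count scaling) and for TNC (0.004 by limma-voom, -0.141 to 0.183 without 1 library). Without 1 library, ITGB2 under shLMO2-2 ranged from -0.03 to 0.35, and between the hairpins ITGAL from -0.234 to 0.167 and LAMA5 from -0.141 to 0.025, with 0.024 for LAMA5 with the trends removed. Over all genes, total-count scaling moved the median log2 difference by -0.036 to -0.049 against control, and left 561 of 1342, 568 of 1401 and 793 of 2077 calls higher in place of 668 of 1239, 726 of 1320 and 951 of 1823. With 3 libraries a group, genes near 1 CPM rest on few counts, and ITGAL on 3 to 33.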
